A study of Mus musculus with 8 samples.

Results

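The genes described here are 32 mouse genes of the unfolded protein response and of protein folding in the endoplasmic reticulum (ER), followed in CD8α+ and CD8α- dendritic cells sorted from the spleen. They were chosen by name, and every probe set whose platform annotation names one of them was taken. That gave 78 probe sets of the 45101 on the array, for 32 of the 18193 genes with a probe set of their own. The brightest probe set, by its mean over the arrays, stands for each gene. Of the 32 genes, 29 reached log2 5 on 2 or more arrays and entered the tests, in which 8763 genes took part, and 57 of the 78 probe sets passed the same filter. Derl3, Trib3 and Pdia4 were below 5 on every array, at 2.50 to 2.70, 2.23 to 2.85 and 2.71 to 4.66, and were not tested.

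The unfolded protein response is the set of signals by which a cell matches its ER to the load of proteins entering it. The sensor IRE1 (gene Ern1) splices the Xbp1 transcript, and the XBP1 protein made from it raises genes of translocation, ER export and ER-associated degradation, the removal of misfolded proteins. The sensor PERK (Eif2ak3) slows translation and favours that of ATF4, which raises Ddit3 (CHOP), Trib3, Ppp1r15a and Ero1a, and ATF6 is cut in the Golgi and raises chaperones such as Hspa5 (BiP). CD8α+ conventional dendritic cells, which present antigen from dead cells to CD8 T cells, are known for IRE1 and XBP1 activity without added stress. The arrays read the amount of a transcript, so a level of Xbp1 does not separate its spliced from its unspliced form. The genes were assigned to an XBP1 branch (13 genes), an ATF4 branch (6) and an ATF6 branch (13) from textbook knowledge, and the targets of the branches overlap, those of XBP1 and ATF6 most of all.

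The study asked how T and B lymphocytes bear on splenic conventional dendritic cells. All mice were untreated female C57BL/6 animals, either wild type or RAG2-/-, which lack mature T and B lymphocytes, and were 10 weeks old per the sample labels. The 4 groups are wild type CD8α-, wild type CD8α+, RAG2-/- CD8α- and RAG2-/- CD8α+ cells, with 2 arrays each. Nothing in the labels says whether the 2 replicates of a group are separate mice, and the p-values may then cover technical spread alone.

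The values are log2 expression as the authors deposited it, and differences are differences of log2 values. Markers of conventional dendritic cells were above 5 on every array for 10 of 10 genes, and the summed level of 11 CD8α+ dendritic cell markers was 16.42 to 16.65 in the CD8α+ groups and 14.06 to 14.94 in the CD8α- groups. The RAG2-/- arrays stood apart from the wild type arrays in ways that touch every comparison of genotypes. On the RAG2-/- arrays 40.4% to 41.9% of the probe sets shared a lowest value of 2.233, and no wild type array had such a floor. The difference between 3′ and 5′ control probe sets of Gapdh was 3.44 to 5.25 on the wild type arrays and 1.94 to 2.87 on the RAG2-/- arrays. For Actb it was 1.42 to 2.14 and 0.66 to 1.49, which overlap. Conventional dendritic cell markers themselves were called higher in RAG2-/- cells for 6 of 10 genes in CD8α- and 4 of 10 in CD8α+ cells. Of all genes, 23.4% and 20.8% were called higher. NK cell markers summed to 7.81 to 8.09 in wild type and to 9.59 to 11.95 in RAG2-/- cells. Red pulp macrophage markers summed to 13.16 to 13.56 in CD8α- and 12.48 to 12.89 in CD8α+ cells of wild type mice, and to 15.67 to 15.70 and 14.02 to 14.31 in RAG2-/- mice. Of 10 such markers, 3 in wild type and 4 in RAG2-/- mice were called lower in CD8α+ cells, where 7.87% and 10.7% of all genes were. The part of these markers in the subset results was not tested. B and plasma cell markers summed to 13.63 to 14.37 in wild type and 12.45 to 13.54 in RAG2-/- cells. Ighm, at 12.06 to 13.42 over all arrays, kept that sum high. In each subset 8 of 10 tested markers were called lower in RAG2-/- cells and 0 higher. Their median differences were -3.27 in CD8α- and -2.73 in CD8α+ cells, and 17.1% and 16.1% of all genes were called lower. Neutrophil transcripts were high on RAG2-/- CD8α- replicate 2 (Ngp 11.65) and CD8α+ replicate 1 (Ngp 10.18). On the other arrays Ngp was at 2.38 to 4.24. RAG2-/- CD8α+ replicate 2 alone had Siglech, a plasmacytoid dendritic cell marker, above 5 (5.36). In bulk samples such as these, fewer cells of a type and less RNA per cell cannot be told apart.

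The promoters are shown because the factors of the response are known to act through short sites in them. The assignment of genes to branches did not use these sites. RefSeq (GRCm38.p6) gave promoters for 27 of the 32 genes, 28 promoters in all, and none was found for Atf6, Derl1, Hyou1, Manf and Sec61a1. The 250 bases before each start were searched on both strands for the ER stress response element (ERSE, CCAAT and CCACG with any 9 bases between them), its shorter form ERSE-II (ATTGG and CCACG with any 1 base between them), the core of the unfolded protein response element (UPRE, TGACGTG) and the CHOP and ATF4 element (CARE, TGATGNAA). ERSE was found before 7 of the 27 genes and in 0.113% of the 32851 promoters of the same length that were searched. Those of 1 chromosome were left out of the search. ERSE-II was found before 1 gene, Herpud1, and in 0.0304% of the promoters searched. The UPRE core was found before 2 genes, Hspa5 and Sec24d, and in 1.65% of the promoters searched, and CARE before Herpud1 and in 3.45%. These are matches of letters, not measured binding. As factors of the response are known to act through such sites in its genes, the counts are descriptions and not an independent result. The ERSE and ERSE-II matches are shown because they stand before several of the folding genes described below. They read 5′ to 3′ in the direction of the motif, with the fixed bases of the motif in capitals.
Creld2 (chr15:88819520-88819538, strand opposite to the gene): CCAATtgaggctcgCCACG
Derl3 (chr10:75893242-75893260, strand opposite to the gene): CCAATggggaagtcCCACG
Dnajc3 (chr14:118937827-118937845, strand of the gene): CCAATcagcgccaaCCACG
Hsp90b1 (chr10:86705533-86705551, strand opposite to the gene): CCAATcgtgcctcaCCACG
Hsp90b1 (chr10:86705638-86705656, strand of the gene): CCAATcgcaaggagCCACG
Hspa5 (chr2:34772025-34772043, strand of the gene): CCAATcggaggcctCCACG
Pdia6 (chr12:17266491-17266509, strand of the gene): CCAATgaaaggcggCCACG
Syvn1 (chr19:6046532-6046550, strand of the gene): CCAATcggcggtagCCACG
Herpud1 (chr8:94386377-94386387, strand of the gene): ATTGGgCCACG

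The spacer of 9 bases between the CCAAT and CCACG parts is different in each of the 8 ERSE matches, and Hsp90b1 carries 2 of them. The promoters of Sec24d, Hspa5, Hsp90b1, Creld2 and Herpud1 are shown whole, from 250 bases before the start to the base before it, on the strand of the gene and with every matched motif in capitals. Sec24d is shown because it had the largest difference between the subsets among the 29 genes, Hspa5 as the standard target of ATF6, Hsp90b1 for its 2 ERSE matches, Creld2 for its difference between the subsets, and Herpud1 because its 2 probe sets disagreed between the genotypes.
Sec24d (chr3:123267246-123267495, UPRE core): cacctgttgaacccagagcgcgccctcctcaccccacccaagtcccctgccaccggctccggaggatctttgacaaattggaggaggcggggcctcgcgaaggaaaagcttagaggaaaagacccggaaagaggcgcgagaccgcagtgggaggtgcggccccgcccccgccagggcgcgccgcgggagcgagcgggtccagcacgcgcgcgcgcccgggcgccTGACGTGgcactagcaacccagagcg
Hspa5 (chr2:34771840-34772089, UPRE core, then ERSE): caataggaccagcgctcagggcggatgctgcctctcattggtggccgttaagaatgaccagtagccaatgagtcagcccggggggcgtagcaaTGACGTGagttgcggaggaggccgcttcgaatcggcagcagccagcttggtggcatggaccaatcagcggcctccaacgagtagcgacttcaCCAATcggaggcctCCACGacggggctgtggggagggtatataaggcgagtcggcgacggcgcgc
Hsp90b1 (chr10:86705445-86705694, ERSE, then ERSE on the opposite strand): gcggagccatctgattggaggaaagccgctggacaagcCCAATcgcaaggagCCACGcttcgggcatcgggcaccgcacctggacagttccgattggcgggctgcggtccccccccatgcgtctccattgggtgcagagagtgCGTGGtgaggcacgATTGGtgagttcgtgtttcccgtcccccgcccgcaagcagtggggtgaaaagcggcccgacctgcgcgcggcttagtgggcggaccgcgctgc
Creld2 (chr15:88819396-88819645, ERSE on the opposite strand): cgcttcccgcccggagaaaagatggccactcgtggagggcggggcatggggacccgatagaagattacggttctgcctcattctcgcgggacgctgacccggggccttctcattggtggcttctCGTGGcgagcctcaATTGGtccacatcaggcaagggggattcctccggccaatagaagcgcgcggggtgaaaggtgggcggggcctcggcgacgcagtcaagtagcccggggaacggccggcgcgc
Herpud1 (chr8:94386179-94386428, CARE on the opposite strand, then ERSE-II): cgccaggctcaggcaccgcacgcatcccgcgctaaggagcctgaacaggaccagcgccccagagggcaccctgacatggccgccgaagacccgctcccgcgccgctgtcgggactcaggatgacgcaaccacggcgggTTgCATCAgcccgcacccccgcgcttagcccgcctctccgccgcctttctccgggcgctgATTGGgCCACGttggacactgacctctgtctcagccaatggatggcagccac

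**Figure D1:**
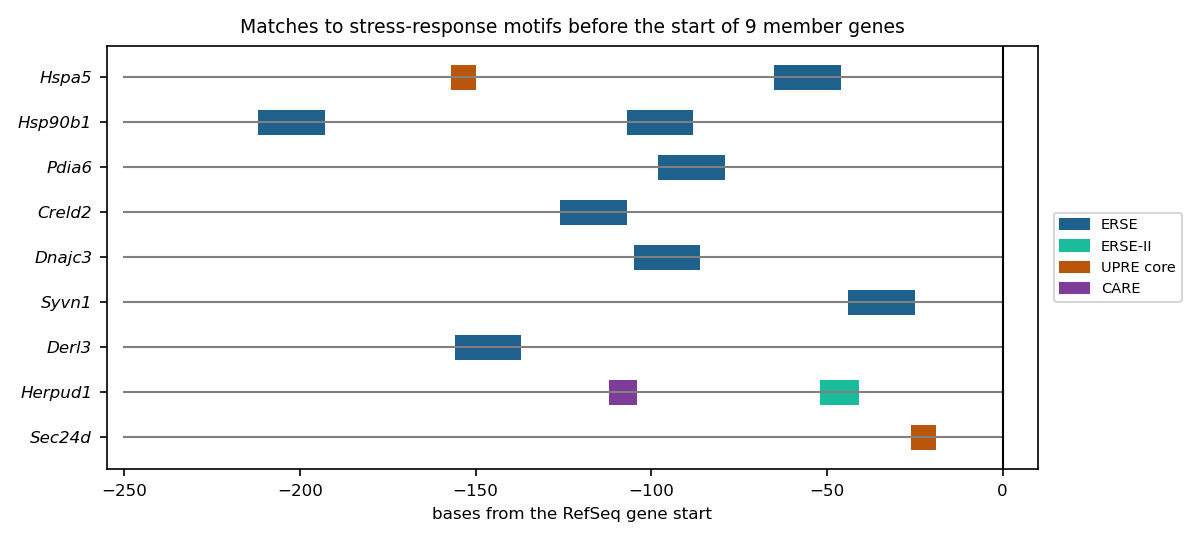
Position of motif matches in the 250 bases before the RefSeq start of 9 genes of the set (x axis, bases from the start; colour, motif). The 8 ERSE matches lie between 212 and 26 bases before the start, and the UPRE core of Sec24d lies at 26 to 20 bases.

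The map shows where the matches fall. The ERSE of Syvn1 lay nearest to its start, at 44 to 26 bases, and the farther of the Hsp90b1 pair lay at 212 to 194. The core of the UPRE was 157 to 151 bases before the start of Hspa5.

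In wild type mice, Sec24d, Manf, Pdia6, Ero1a and Derl2 were higher in CD8α+ than in CD8α- cells (limma, adjusted p under 0.05), by 6.91-fold for Sec24d and by 1.84-fold to 2.43-fold for the others. These are 5 of 29 genes, or 17.2%, where 9.23% of all genes tested were called higher. No gene of the set was called lower, where 7.87% of all genes were. At an unadjusted p under 0.05 the counts were 14 higher and 0 lower, against 2606 of all 8763 genes in either direction. The median difference of the 29 genes was 0.53, against 0.01 over all genes, and 24 of the 29 lay above 0, where 51.6% of all genes did. The arrays of the groups did not overlap for 20 genes with CD8α+ cells higher (69.0%, against 32.4% of all genes) and for 1 gene, Edem3, with CD8α+ cells lower (28.3% of all genes).

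Sec24d, a cargo-binding subunit of the COPII coat that buds vesicles from the ER, was at 5.45 and 5.57 on the wild type CD8α- arrays and at 8.20 and 8.39 on the CD8α+ arrays. The difference was 2.79 ± 0.37 (SE, n = 2 a group, adjusted p = 0.00237), and the groups were far apart relative to their spread. The translocon genes of the same branch differed less. Sec61a1, the pore through which new proteins enter the ER, was at 11.90 and 12.11 and then at 12.64 and 12.61, and its difference of 0.62 ± 0.18 missed the threshold (adjusted p = 0.0581). Sec61b, a small subunit of that pore, differed by 0.35 ± 0.19 (adjusted p = 0.298).

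Among 9 chaperones and their partners, 1 was called higher and 7 had an unadjusted p under 0.05, all higher in CD8α+ cells. Manf, a secreted ER protein that binds BiP, was at 10.99 and 10.74 in CD8α- cells and at 12.16 and 12.14 in CD8α+ cells. Its difference was 1.28 ± 0.28 (adjusted p = 0.0197), and the arrays did not overlap. Creld2, an ER-resident protein with disulfide isomerase activity, was at 10.40 and 10.51 and then at 12.22 and 11.93, a larger difference of 1.62 ± 0.46 that missed the threshold (adjusted p = 0.0541). Sdf2l1, a component of the BiP chaperone cycle, was at 6.25 and 6.37 and then at 7.46 and 7.74 (1.29 ± 0.41, adjusted p = 0.0756). In each of Manf, Creld2 and Sdf2l1 the lower CD8α+ array lay more than 1 log2 unit above the higher CD8α- array.

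The other chaperones of the set were not called on their brightest probe sets. Hspa5, which encodes BiP, the main ER chaperone and a brake on the sensors, was at 13.63 and 13.40 in CD8α- cells and at 14.26 and 14.13 in CD8α+ cells (0.68 ± 0.25, adjusted p = 0.122). Its second probe set gave 1.22 ± 0.27 and passed the test run over all probe sets (adjusted p = 0.0251), while the remaining one gave -0.41 (adjusted p = 0.548). Hsp90b1 (Grp94), a chaperone of Toll-like receptors and integrins, was at 12.77 and 12.63 and then at 13.45 and 13.63 (0.84 ± 0.28, adjusted p = 0.0857). Its second probe set gave 1.46 ± 0.42 (adjusted p = 0.0676 over all probe sets), and the mean of both gave 1.15 and was called (adjusted p = 0.0491). Hyou1, Dnajb11, Dnajc3 and Dnajb9, which help BiP release or take up its clients, differed by 0.62, 0.76, 0.77 and 0.52, with adjusted p = 0.156, 0.159, 0.267 and 0.278. Dnajc3 has 4 tested probe sets, and 2 of the others were called higher, by 1.41 (adjusted p = 0.0287) and 1.21 (adjusted p = 0.0399).

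Both tested genes of oxidative folding were called higher in wild type CD8α+ cells. Pdia6, a disulfide isomerase that also tunes IRE1, was at 10.53 and 9.97 in CD8α- cells and at 11.27 and 11.51 in CD8α+ cells (1.13 ± 0.30, adjusted p = 0.0402). Ero1a, the oxidase that recharges such isomerases, was at 8.29 and 8.51 and then at 9.28 and 9.40 (0.94 ± 0.18, adjusted p = 0.0125). A dimmer probe set of Ero1a had a larger difference, at 6.33 and 6.25 against 8.69 and 8.87 (2.49 ± 0.36, adjusted p = 0.00532). The probe sets thus agreed in direction and not in size.

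Of 8 tested genes of ER-associated degradation, 1 was called higher. Derl2, part of the channel through which misfolded proteins leave the ER, was at 10.34 and 10.38 in CD8α- cells and at 11.14 and 11.35 in CD8α+ cells (0.88 ± 0.18, adjusted p = 0.0164), and its second probe set showed 0.08 (adjusted p = 0.89). The mean of both was 0.48 and was not called (adjusted p = 0.155). Herpud1, a scaffold of the degradation complex, had a difference of 0.51 ± 0.20 (adjusted p = 0.143), and Edem2, a mannosidase that marks clients, one of 0.47 ± 0.22 (adjusted p = 0.212). Derl1 and Edem3 were at -0.19 and -0.31 on their brightest probe sets, with adjusted p = 0.654 and 0.562. The other tested probe sets of Derl1 were at 0.17, 0.11 and 0.94 and were not called (adjusted p = 0.604, 0.747 and 0.128).

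None of the 5 sensors and transcription factors was called between the wild type subsets. Xbp1 was at 11.84 and 11.94 in CD8α- cells and at 12.35 and 12.51 in CD8α+ cells, so the arrays did not overlap, with a difference of 0.53 ± 0.18 (adjusted p = 0.0884, unadjusted p = 0.0196). Its 2 dimmer tested probe sets were called, at 9.68 and 9.79 against 10.77 and 11.06 (1.18 ± 0.24, adjusted p = 0.0200) and at 9.59 and 9.59 against 10.58 and 10.51 (0.96 ± 0.17, adjusted p = 0.0115). All 3 probe sets of Xbp1 therefore had CD8α+ cells higher. Ern1, Atf6, Eif2ak3 and Atf4 differed by 0.32, 0.15, -0.07 and -0.31, with adjusted p = 0.475, 0.825, 0.922 and 0.651, and their arrays overlapped. The effectors Ddit3, which encodes the pro-apoptotic factor CHOP, and Ppp1r15a, which restores translation, differed by -0.29 and 0.73, with adjusted p = 0.508 and 0.267.

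Of the wild type calls, that of Sec24d held under all 20 other settings tried. The call of Manf was lost without either array of either wild type group (adjusted p = 0.0816 and 0.128 without CD8α- replicate 1 and 2, and 0.0921 and 0.101 without CD8α+ replicate 1 and 2), and so was that of Pdia6 (0.0709, 0.223, 0.107 and 0.191 in the same order). Derl2 was lost without CD8α- replicate 1 or 2 (0.0925 and 0.0807) or CD8α+ replicate 2 (0.0907), and Ero1a without CD8α- replicate 1 (0.0869) or CD8α+ replicate 2 (0.0735). Leaving out those 4 arrays in turn left 1, 2, 3 and 1 genes called. Creld2 was called under 11 of the 20 settings, among them each that left out 1 RAG2-/- array (adjusted p = 0.0291 without either CD8α- array and 0.0458 without either CD8α+ array), and Sdf2l1 under 5 (0.0196 without either RAG2-/- CD8α+ array). Without the 2 arrays with neutrophil transcripts, 8 genes were called higher and 0 lower.

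**Figure D2:**
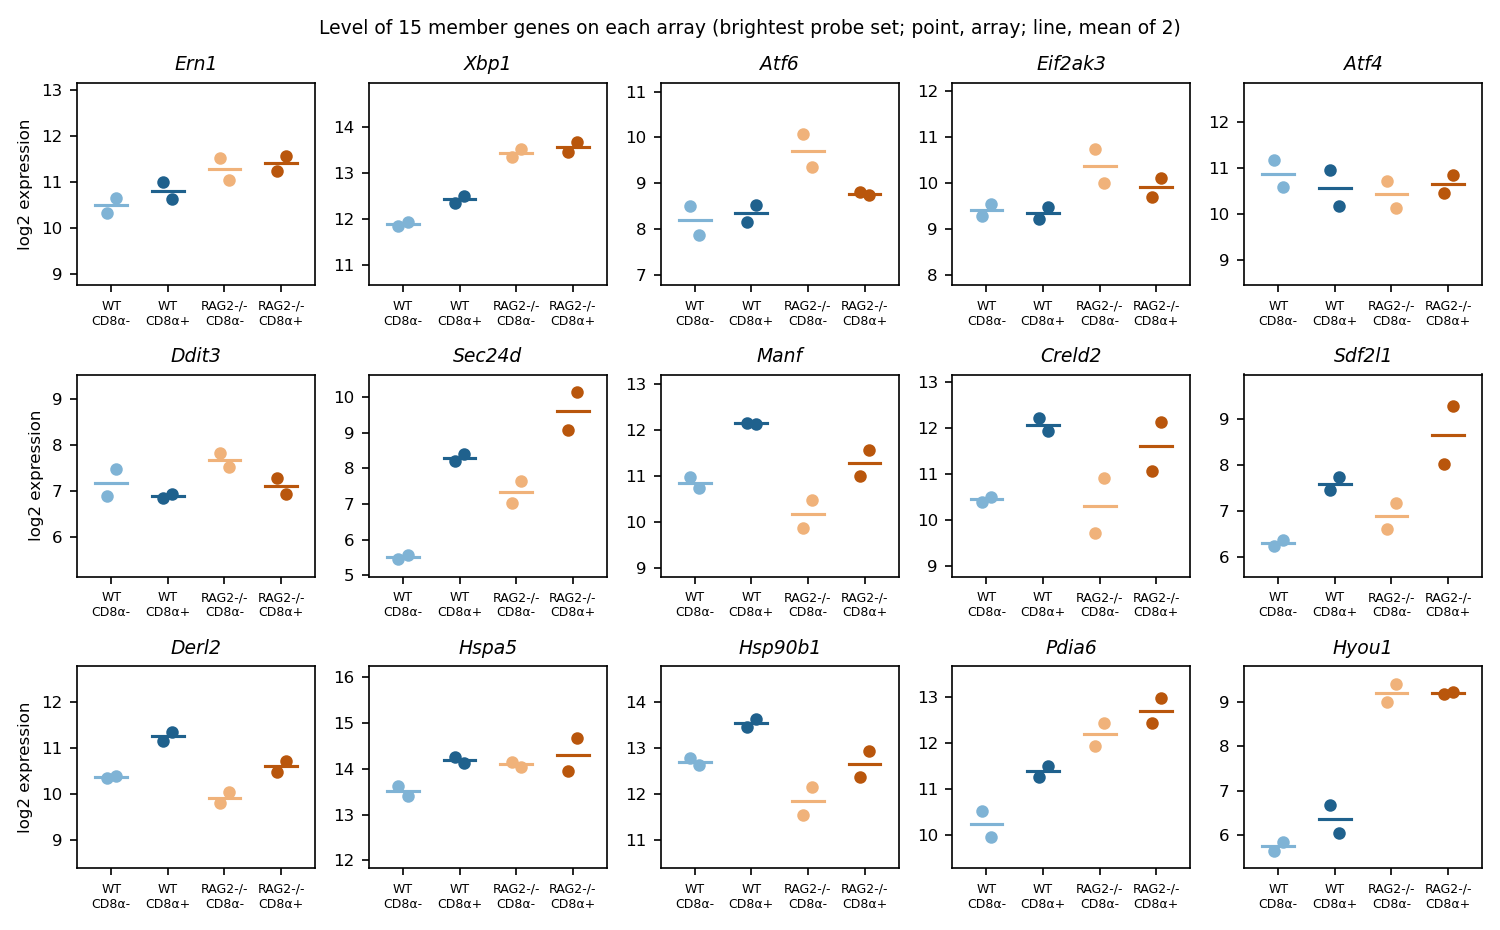
Level of 15 genes on each of the 8 arrays (y axis, log2 expression of the brightest probe set; points, arrays; line, mean of 2). Sec24d and Manf have both CD8α+ arrays above both CD8α- arrays in each genotype, while Xbp1 and Hyou1 have all 4 RAG2-/- arrays above all 4 wild type arrays.

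The plot of levels by array covers 15 of the 32 genes, with a y axis of its own for each gene because the level of one probe set cannot be set against that of another. The RAG2-/- points were more widely spread than the wild type points for Creld2, Manf, Sdf2l1 and Sec24d.

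In RAG2-/- mice the same comparison of CD8α+ with CD8α- cells called Sec24d, Sdf2l1, Manf and Derl2 higher and no gene of the set lower. Of these, 3 (Sec24d, Manf and Derl2) had been called in wild type cells as well. The 4 calls are 13.8% of the 29 genes, where 11.1% of all genes were called higher and 10.7% lower. At an unadjusted p under 0.05, 9 genes were higher and 1, Atf6, was lower. These 10 of 29 genes are about the share found over all genes, 3059 of 8763 in either direction. The median difference of the 29 genes was 0.23, against 0.02 over all genes, and 19 lay above 0, where 51.3% of all genes did. The arrays did not overlap for 10 genes with CD8α+ cells higher (34.5%, against 30.6% of all genes) and for 2 with CD8α+ cells lower, Atf6 and Ddit3 (6.90%, against 27.6%).

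Sec24d was at 7.03 and 7.64 in RAG2-/- CD8α- cells and at 9.07 and 10.14 in CD8α+ cells, a difference of 2.27 ± 0.37 (adjusted p = 0.00526). Sdf2l1 was at 6.62 and 7.18 and then at 8.03 and 9.30 (1.77 ± 0.41, adjusted p = 0.0221). Manf was at 9.87 and 10.49 and then at 11.00 and 11.58 (1.11 ± 0.28, adjusted p = 0.0305). In these 3 genes CD8α+ replicate 2 was the highest RAG2-/- array. It was also the array with Siglech at 5.36, and it had the erythroid marker Slc4a1 at 8.82. Slc4a1 was also high, at 9.06, on RAG2-/- CD8α- replicate 2. The part of these transcripts in the result was not tested.

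Derl2 was at 9.80 and 10.03 and then at 10.48 and 10.70 (0.67 ± 0.18, adjusted p = 0.0399). Its second probe set gave -0.03 (adjusted p = 0.963), and the mean of both gave 0.32 and was not called (adjusted p = 0.294). Creld2 was at 9.71 and 10.91 and then at 11.06 and 12.14, a difference of 1.29 ± 0.46 with the arrays apart (adjusted p = 0.0920). Hsp90b1, at 11.53 and 12.14 and then at 12.36 and 12.93, differed by 0.81 ± 0.28 (adjusted p = 0.0802), and Sec61a1 by 0.59 ± 0.18 (adjusted p = 0.0572). The chaperone and translocon genes with differences above 0.50 in wild type cells thus included several with differences of like size here, without passing the test.

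Dnajb9 was at 11.12 and 10.91 and then at 11.33 and 12.10 (0.70 ± 0.28, adjusted p = 0.124), and Sec61b differed by 0.49 ± 0.19 (adjusted p = 0.122), with the arrays apart in both genes. Xbp1 was at 13.34 and 13.53 and then at 13.47 and 13.68, overlapping, with a difference of 0.14 ± 0.18 (adjusted p = 0.629). Hspa5 (0.21 ± 0.25), Pdia6 (0.52 ± 0.30) and Herpud1 (0.09 ± 0.20) also overlapped between the subsets. Hyou1, whose 4 RAG2-/- arrays lay between 8.99 and 9.41, had no difference to 2 decimals (SE 0.26). Atf6 was at 10.08 and 9.35 in CD8α- cells and at 8.81 and 8.74 in CD8α+ cells (-0.94 ± 0.31, adjusted p = 0.0737). Ddit3 was at 7.83 and 7.52 and then at 7.28 and 6.94 (-0.57 ± 0.25, adjusted p = 0.154). Derl1 was at -0.23 on its brightest probe set (adjusted p = 0.509). A dimmer probe set of Derl1 was called higher in CD8α+ cells (1.63 ± 0.34, adjusted p = 0.0189), and the remaining ones were at -0.07 and -0.08.

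The call of Sec24d again held under all 20 other settings. Sdf2l1 was lost without wild type CD8α- replicate 1 or 2 (adjusted p = 0.0542 each), RAG2-/- CD8α- replicate 1 (0.112) or RAG2-/- CD8α+ replicate 2 (0.0585, with a difference of 1.13). Manf was lost without any 1 of the 4 wild type arrays (0.0608 without a CD8α- array, 0.0583 without a CD8α+ array), without RAG2-/- CD8α- replicate 1 (0.131) and without CD8α+ replicate 2 (0.131, with a difference of 0.82). Derl2 was lost whichever of the 8 arrays was left out (adjusted p from 0.0505 to 0.151). The count fell to 1 without either wild type CD8α- array, RAG2-/- CD8α- replicate 1 or RAG2-/- CD8α+ replicate 2, and to 2 without either wild type CD8α+ array. Without RAG2-/- CD8α- replicate 2, which carries neutrophil transcripts, 5 genes were called higher and Atf6 was called lower (-1.31, adjusted p = 0.0357), with Creld2 (1.89, adjusted p = 0.0319) and Hsp90b1 (1.12, adjusted p = 0.0419) among the higher. Without CD8α+ replicate 1, Dnajb9 was called (1.09, adjusted p = 0.0383), and without both arrays with neutrophil transcripts 5 genes were called.

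The subset differences of the genotypes rest on separate arrays and were set side by side. Of the 29 genes, 18 lay above 0 in both genotypes, 4 lay below 0 in both, and 7 had opposite signs. Over all genes 77.4% had the same sign in both genotypes, about the share of the 29. Across the 29 genes the differences correlated at r = 0.841, and across all 8763 genes at 0.866, where genes are not independent replicates. The interaction of genotype and subset tests whether a subset difference itself changed. It called 0 of the 29 genes (limma, smallest adjusted p = 0.654), where 0.24% of all genes, 21 in number, were called. At an unadjusted p under 0.05 it had 1 gene, Atf6 (-1.09 ± 0.44, unadjusted p = 0.0421), against 635 of all genes, and the call count stayed at 0 with trend and robust eBayes. The median interaction was -0.29 for the 29 genes and -0.02 for all genes, with 5 of the 29 and 47.9% of all genes above 0. A subset difference that passed in one genotype only, such as that of Pdia6 or Sdf2l1, was therefore not shown to differ between the genotypes.

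**Figure D3:**
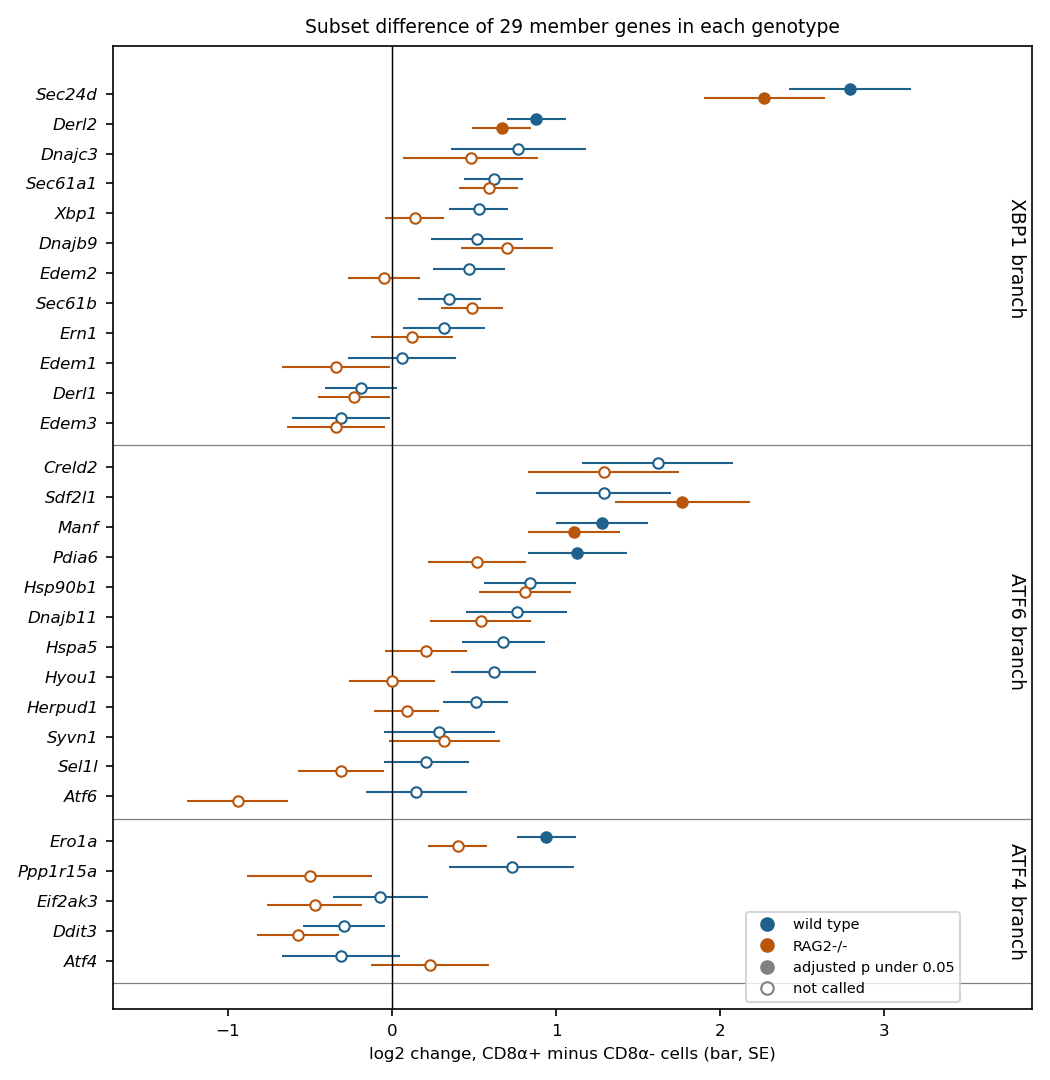
CD8α+ minus CD8α- difference of the 29 tested genes in wild type and RAG2-/- cells (x axis, log2 change; bars, SE; filled points, adjusted p under 0.05), ordered within the XBP1, ATF6 and ATF4 branches. Sec24d stands out at 2.79 and 2.27, and the wild type points of the ATF6 branch all lie above 0.

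The plot of subset differences shows the branches apart. In wild type cells the ATF6 branch had a median difference of 0.72 with 12 of 12 tested genes above 0, the XBP1 branch one of 0.50 with 10 of 12 above 0, and the ATF4 branch one of -0.07 with 2 of 5 above 0. In RAG2-/- cells the medians were 0.42 (9 of 12 above 0), 0.31 (8 of 12) and -0.47 (2 of 5) in the same order. Each branch had 2, 2 and 1 genes called in wild type and 2, 2 and 0 in RAG2-/- cells. The ATF4 call was Ero1a, the gene of that branch that acts in folding, while Atf4, Ddit3 and Eif2ak3 had no call in either genotype. Over the other settings the wild type medians ranged from 0.65 to 0.85 (ATF6), from 0.40 to 0.53 (XBP1) and from -0.14 to 0.11 (ATF4), so only that of ATF4 changed sign. In RAG2-/- cells they ranged from 0.03 to 0.85, from 0.02 to 0.53 and from -0.64 to 0.03. No test compared the branches, which hold few genes and share targets.

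Between the genotypes, Hyou1, Pdia6, Sec24d, Xbp1 and Ero1a were higher in RAG2-/- cells of both subsets on their brightest probe sets, and Hsp90b1 was lower in both. In CD8α- cells 10 of the 29 genes were called higher in RAG2-/- (34.5%, against 23.4% of all genes) and 1 lower (3.45%, against 17.1%). At an unadjusted p under 0.05 the counts were 12 and 3, about the share over all genes (4382 of 8763 in either direction). In CD8α+ cells 5 were called higher (17.2%, against 20.8% of all genes) and 3 lower (10.3%, against 16.1%). There, 7 and 4 had an unadjusted p under 0.05, a smaller share than over all genes (4229 of 8763 in either direction). The medians of the 29 genes were 0.49 in CD8α- and 0.16 in CD8α+ cells, and those of all genes were 0.14 and 0.09. Centring each array on its median moved the 0.14 to 0.03 and the called counts in CD8α- cells to 7 higher and 3 lower, and quantile normalization gave 0.04 and again 7 and 3. Centring and quantile normalization ended the CD8α- calls of Ern1 (adjusted p = 0.0803 and 0.114), Eif2ak3 (0.0551 and 0.0693) and Dnajb11 (0.0571 and 0.0834), and added Manf (-0.79 and -0.90) and Derl2 (-0.55 and -0.66) as lower. In CD8α+ cells they ended the call of Ero1a (0.051 and 0.108). The genotypes carry different processing notes, floors and Gapdh control ratios, so genotype and array processing cannot be told apart.

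Hyou1 (Grp170), a BiP-like chaperone and nucleotide exchange factor, was at 5.65, 5.85, 6.68 and 6.06 on the wild type arrays and at 8.99, 9.41, 9.18 and 9.21 on the RAG2-/- arrays. No RAG2-/- array came near a wild type one, and the differences were 3.45 ± 0.26 in CD8α- cells (10.9-fold, adjusted p = 0.000419) and 2.82 ± 0.26 in CD8α+ cells (7.07-fold, adjusted p = 0.000899). Its other probe sets lay below 5 on every array and could not be tested. Pdia6 rose by 1.94 ± 0.30 (adjusted p = 0.00338) and 1.33 ± 0.30 (adjusted p = 0.0139). Sec24d rose by 1.83 ± 0.37 (adjusted p = 0.00839) and 1.31 ± 0.37 (adjusted p = 0.0298). Wild type CD8α- cells shared no level of Sec24d with any other group, and RAG2-/- CD8α- cells lay between them and both CD8α+ groups.

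Xbp1 was higher by 1.54 ± 0.18 in RAG2-/- CD8α- cells (adjusted p = 0.00136) and by 1.15 ± 0.18 in CD8α+ cells (adjusted p = 0.00384). A second probe set had 2.32 and 1.63 (adjusted p = 0.00123 and 0.00387), but the remaining one had 0.31 and -0.33 (adjusted p = 0.194 and 0.168). On their brightest probe sets, the other sensors were called in CD8α- cells, with Atf6 at 1.52 ± 0.31 (adjusted p = 0.00923), Eif2ak3 at 0.95 ± 0.29 (adjusted p = 0.0359) and Ern1 at 0.79 ± 0.25 (adjusted p = 0.0443). In CD8α+ cells they were at 0.43, 0.56 and 0.59 (adjusted p = 0.318, 0.168 and 0.110), and the interaction called none of them. A dimmer probe set of Ern1 was called in both subsets (2.22 ± 0.34 and 2.35 ± 0.34, adjusted p = 0.00413 and 0.00366). It was at 3.51, 3.57, 4.10 and 3.69 on the wild type arrays and at 6.09, 5.44, 6.66 and 5.84 on the RAG2-/- arrays. It thus passed the filter of log2 5 only through the RAG2-/- arrays, where it is high, and its calls are not taken as support. The mean of the probe sets ended the CD8α- call of Atf6 (0.50, adjusted p = 0.158). For Ern1 that mean includes the dimmer probe set, and it gave a CD8α+ call with the same limit (1.47, adjusted p = 0.00571). Atf4 differed by -0.44 and 0.09 and was not called.

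Ppp1r15a was at 7.15 and 6.99 in wild type and at 8.48 and 8.43 in RAG2-/- CD8α- cells (1.38 ± 0.38, adjusted p = 0.0266). In CD8α+ cells its arrays overlapped (0.16, adjusted p = 0.774). Ero1a rose by 1.11 ± 0.18 in CD8α- cells (adjusted p = 0.00421) and by 0.57 ± 0.18 in CD8α+ cells (adjusted p = 0.0452), and Dnajb11 by 0.96 ± 0.31 in CD8α- cells (adjusted p = 0.0453). The dimmer probe set of Ero1a differed by 0.49 (adjusted p = 0.324) in CD8α- cells and by -0.35 (adjusted p = 0.482) in CD8α+ cells, where the mean of both was 0.11 (adjusted p = 0.751). Hsp90b1 fell by 0.86 in CD8α- cells (SE 0.28, adjusted p = 0.0427) and by 0.89 in CD8α+ cells (SE 0.28, adjusted p = 0.0414), and neither call held for the mean of its probe sets (-0.59 and -0.91, adjusted p = 0.187 and 0.0637). Manf fell by 0.86 (SE 0.28, adjusted p = 0.0481) and Derl2 fell by 0.66 (SE 0.18, adjusted p = 0.0293) in CD8α+ cells. The second probe set of Derl2 had the opposite sign, at 0.46 in CD8α- and 0.35 in CD8α+ cells (adjusted p = 0.169 and 0.287), and the mean of both was -0.15 in CD8α+ cells (adjusted p = 0.578). In CD8α- cells Manf was at -0.69 and Derl2 at -0.44, which missed the threshold (adjusted p = 0.0887 and 0.0926). Chaperone genes were thus called in both directions between the genotypes.

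In both subsets, the genotype calls of Hyou1 and Xbp1 held under all 20 other settings, as did those of Pdia6 and Ero1a in CD8α- cells. In CD8α- cells, leaving out wild type CD8α- replicate 1 ended the calls of Sec24d (adjusted p = 0.0588), Ppp1r15a (0.101), Dnajb11 (0.112), Eif2ak3 (0.171), Ern1 (0.208) and Hsp90b1 (0.175). Leaving out replicate 2 of that group ended those of Atf6 (0.0618), Ppp1r15a (0.124), Dnajb11 (0.195), Eif2ak3 (0.0935), Ern1 (0.0859) and Hsp90b1 (0.121), and either left 5 genes called. Without RAG2-/- CD8α- replicate 1, 7 genes were called (Ppp1r15a 0.0868, Dnajb11 0.0879, Eif2ak3 0.145, Ern1 0.181, Hsp90b1 0.180, and Sel1l gained at 0.0253), and without either wild type CD8α+ array also 7 (Ern1 0.0555, Eif2ak3 0.0575, Hsp90b1 0.0675, Dnajb11 0.0692). Without RAG2-/- CD8α- replicate 2, Ppp1r15a (0.0811) and Dnajb11 (0.155) were lost and Manf was gained (-0.99, 0.0464). Without either RAG2-/- CD8α+ array, Ern1 was lost (0.0538) and Hspa5 gained (0.58, 0.0428). Without both arrays with neutrophil transcripts 9 genes were called higher and 2 lower.

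In CD8α+ cells, leaving out wild type CD8α+ replicate 1 left 2 genes called and ended the calls of Pdia6 (adjusted p = 0.0823), Sec24d (0.137), Ero1a (0.160), Hsp90b1 (0.110), Manf (0.159) and Derl2 (0.0627). Leaving out replicate 2 of that group left 3 and ended those of Sec24d (0.0898), Ero1a (0.0900), Hsp90b1 (0.158), Manf (0.141) and Derl2 (0.114). Leaving out either wild type CD8α- array left 3 and ended Sec24d (0.0601), Ero1a (0.0625), Hsp90b1 (0.0739), Manf (0.0786) and Derl2 (0.0527). Without RAG2-/- CD8α+ replicate 1, which carries neutrophil transcripts, Ero1a (0.105), Hsp90b1 (0.186), Manf (0.212) and Derl2 (0.116) were lost and Dnajb11 (1.21, 0.0261) and Sdf2l1 (1.70, 0.0171) gained, for 6 higher and 0 lower. Without RAG2-/- CD8α+ replicate 2, Pdia6 (0.0713), Sec24d (0.109), Ero1a (0.133) and Derl2 (0.0517) were lost and Edem1 (-1.32, 0.0270) and Syvn1 (-1.14, 0.0289) gained, for 2 higher and 4 lower. Without both arrays with neutrophil transcripts 6 were called higher and 0 lower.

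The probe sets of one gene disagreed in sign in more genes between the genotypes than between the subsets. Among the 16 genes with 2 or more tested probe sets, all probe sets had CD8α+ cells higher in 11 genes and lower in 1 in wild type, with 4 genes mixed, and in RAG2-/- cells the counts were 9, 2 and 5. Between the genotypes the signs were mixed in 9 genes in CD8α- cells and in 12 in CD8α+ cells. The median range between the probe sets of a gene was 0.63 and 0.44 for the subset differences and 1.51 and 1.71 for the genotype differences. In CD8α- cells, Sec61a1 had 2 probe sets called higher (1.88 and 0.52, adjusted p = 0.0038 and 0.0450) and 1 called lower (-2.60 ± 0.53, adjusted p = 0.0104). The lower one was at 5.55 and 5.45 in wild type and at 2.47 and 3.33 in RAG2-/- cells, near the RAG2-/- floor of 2.233. Atf6 had 1 called higher and 1 called lower (-0.75 ± 0.23, adjusted p = 0.0436). Edem1 was at -0.45 on its brightest probe set (adjusted p = 0.319) and was called higher on the other (0.83, adjusted p = 0.0339). In CD8α+ cells these were at -0.86 and 0.70 (adjusted p = 0.0853 and 0.0589). The brightest probe set of Syvn1 was there at -0.62 and its other at -0.02 (adjusted p = 0.206 and 0.963).

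Herpud1 shows the disagreement between probe sets plainly. Its brighter probe set was at 11.87, 11.79, 12.16 and 12.52 on the wild type arrays and at 11.93, 11.87, 11.82 and 12.17 on the RAG2-/- arrays, with differences of 0.08 (adjusted p = 0.794) and -0.35 (adjusted p = 0.231) in the test over all probe sets. Its dimmer probe set was at 8.42, 8.46, 8.51 and 8.73 and at 11.09, 11.45, 11.63 and 11.81, with differences of 2.83 ± 0.20 and 3.10 ± 0.20 (adjusted p = 0.000458 and 0.000399). One gene thus stood level or several-fold apart between the genotypes according to the probe set read. Atf4 was similar, with -0.44 and 0.09 on the brighter probe set and 2.06 and 1.91 on the dimmer (adjusted p = 0.00258 and 0.00352).

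**Figure D4:**
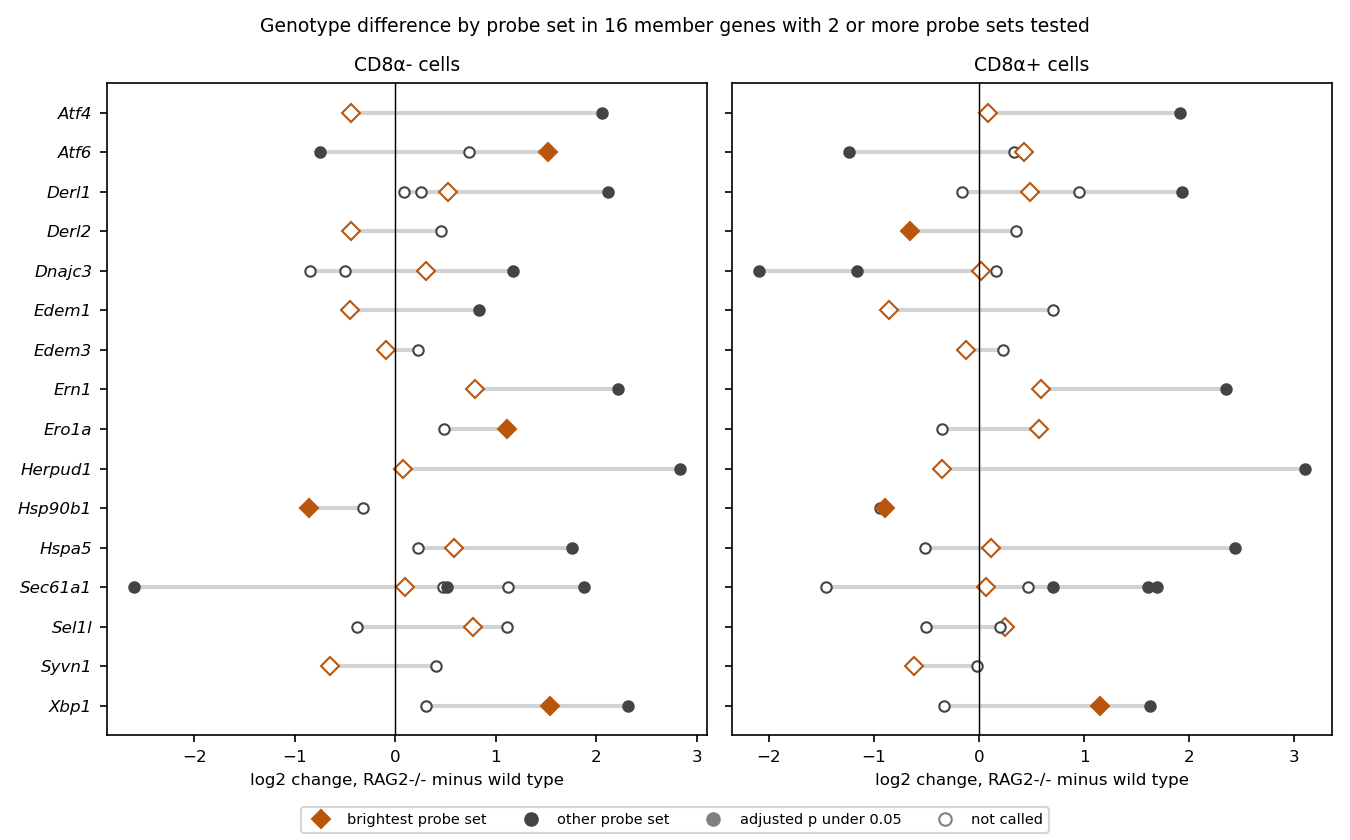
RAG2-/- minus wild type difference of each tested probe set of 16 genes, in CD8α- cells (left) and CD8α+ cells (right); x axis, log2 change; diamonds, the brightest probe set; circles, others; filled, adjusted p under 0.05 in the test over all probe sets. The probe sets of Sec61a1 and Herpud1 span the widest ranges, 4.48 in CD8α- cells and 3.44 in CD8α+ cells. The range of Sec61a1 rests on a probe set near the floor of the RAG2-/- arrays.

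The plot of probe sets marks calls from a test adjusted over all probe sets, in which the brightest probe sets of Ern1 (adjusted p = 0.0515 in CD8α- cells) and Ero1a (0.0511 in CD8α+ cells) were not called. Of the 57 tested probe sets of the members, 18 were called higher and 3 lower in RAG2-/- CD8α- cells, where 20.2% and 17.4% of all 14603 tested probe sets were. In CD8α+ cells 13 were called higher and 5 lower, where 18.1% and 17.7% of all were. Between the subsets 11 were called higher in wild type cells (7.85% of all) and 6 in RAG2-/- cells (8.72% of all), and 0 were called lower (6.27% and 8.85% of all). Of the branches, the ATF4 genes had the highest median between the genotypes in CD8α- cells, 0.95 over 5 genes, with 0.59 for ATF6 and 0.23 for XBP1, the last of which came to 0 under quantile normalization. In CD8α+ cells the medians were 0.21, 0.18 and 0.07.

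Further genes of the pathway outside the 32 were counted by list. The counts stand beside 9.23% of all genes called higher and 7.87% lower in wild type CD8α+ cells, and 11.1% and 10.7% in RAG2-/- CD8α+ cells. Of 21 other ER folding enzymes and chaperones, 9 were called higher in wild type CD8α+ cells and 0 lower (median 0.75), and 8 and 0 in RAG2-/- cells (median 0.64). Pdia5, another disulfide isomerase, had the largest differences of that list, at 12.54 ± 0.25 (SD) against 6.70 ± 0.21 in wild type (5.84, adjusted p = 0.000192) and 12.73 ± 0.24 against 8.12 ± 0.93 in RAG2-/- cells (4.61, adjusted p = 0.000468). Pdia3, the isomerase of the MHC class I peptide-loading complex, was higher by 1.92 in wild type CD8α+ cells (adjusted p = 0.00599). Prdx4, the ER peroxiredoxin, was higher by 1.49 in RAG2-/- CD8α+ cells (adjusted p = 0.0222). The folding list thus leaned the same way as the 29 genes, with a larger share called.

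Of 18 other translocon and signal peptidase genes, 4 were called higher and 0 lower in each genotype (medians 0.50 and 0.32). Sec63, a BiP-recruiting partner of the translocon, was higher by 1.41 and 1.63 (adjusted p = 0.0194 and 0.00974), and Ssr4, of the translocon-associated complex, by 1.37 and 1.26 (adjusted p = 0.0102 and 0.0129). The neighbouring steps had few calls. Of 20 COPII and Golgi traffic genes 1 was called higher in each genotype (Tmed10, 0.78, in wild type; Sec23a, 1.15, in RAG2-/-) and none lower. Of 15 other ER-associated degradation genes, 0 were called higher and 1 lower in wild type (Fam8a1, -0.66), and 1 and 1 in RAG2-/- cells (Selenos, 1.06; Ubac2, -0.78).

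Targets of ATF4 and CHOP were called in both directions. Of 19 tested, 3 were higher and 3 lower in wild type CD8α+ cells (median 0.04), and 4 and 3 in RAG2-/- cells (median 0.59). Bcl2l11, the pro-apoptotic BIM, was higher by 1.59 and 1.29 (adjusted p = 0.0171 and 0.0330). Ddit4, an inhibitor of mTORC1, was lower in CD8α+ cells at -2.93 and -3.19 (adjusted p = 0.0451 and 0.0291). Map3k5, the stress kinase ASK1 downstream of IRE1, was lower at -1.74 and -1.63 (adjusted p = 0.00261 and 0.00315), 1 of 17 other regulators called lower in each genotype, with 1 called higher in each.

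Among 3 tested transcripts named in the literature as IRE1 decay substrates, none was called in wild type cells (0 at an unadjusted p under 0.05) and Hgsnat was lower in RAG2-/- CD8α+ cells (-0.73, adjusted p = 0.0307). None of 10 cytosolic heat shock genes was called in any of the 4 comparisons by limma, and 0 had an unadjusted p under 0.05. Of 13 immediate early genes, which rise on handling or activation of cells, 2 were called higher and 1 lower in wild type, and 2 and 0 in RAG2-/- cells. Egr3 was higher in CD8α+ cells by 2.62 and 3.11 (adjusted p = 0.0370 and 0.0168).

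**Figure D5:**
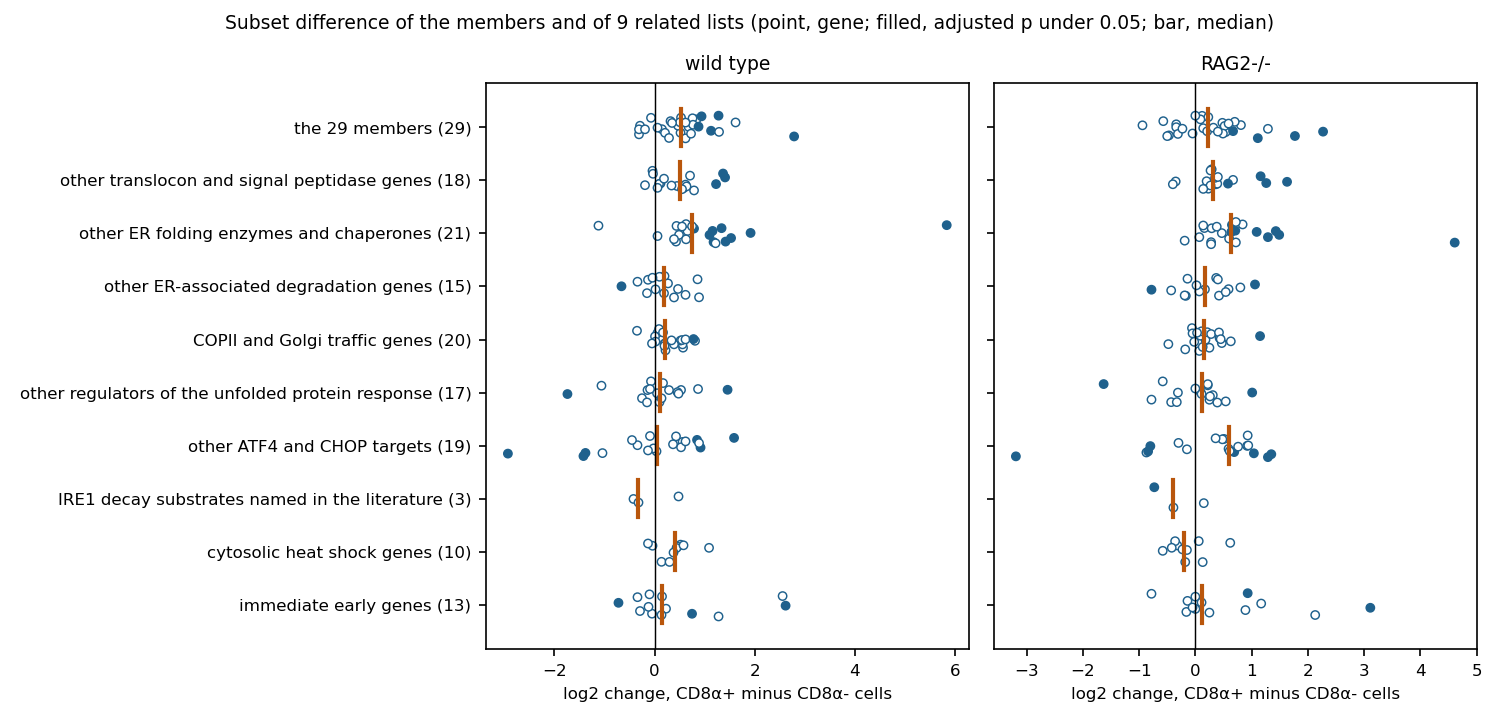
CD8α+ minus CD8α- difference of the 29 genes and of the genes of 9 related lists, in wild type (left) and RAG2-/- cells (right); x axis, log2 change; points, genes; filled, adjusted p under 0.05; bar, median of the list. The folding list has the highest medians, 0.75 and 0.64, and the heat shock list has no filled point.

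The plot of lists sets the 29 genes, with medians of 0.53 and 0.23, beside lists that hold between 3 and 21 tested genes. Between the genotypes, the folding list had 7 genes called higher and 4 lower in CD8α- cells and 4 and 5 in CD8α+ cells, where 23.4% and 17.1%, and 20.8% and 16.1%, of all genes were. In CD8α+ cells the higher calls were no larger a share of the list than of all genes. Mzb1, a BiP-associated chaperone of B and plasma cells, was among the lower genes, at 7.35 ± 0.59 (SD) in wild type and 4.36 ± 0.53 in RAG2-/- CD8α- cells (-2.99, adjusted p = 0.00156). The B and plasma cell transcript Jchain stood at 9.32 to 10.56 on the wild type arrays and at 2.23 to 6.12 on the RAG2-/- arrays, and its part in the level of Mzb1 was not tested. Of 19 ATF4 and CHOP targets, 6 were called higher and 4 lower in RAG2-/- CD8α- cells, and 5 and 2 in CD8α+ cells. Atf3, a stress factor induced by ATF4, was higher in RAG2-/- cells of both subsets, by 2.40 (adjusted p = 0.000521) and 1.56 (adjusted p = 0.00232). Slc3a2, an amino acid transporter chain, was higher by 1.29 and 1.49 (adjusted p = 0.00218 and 0.00171). Nupr1 was lower in both subsets, at -2.43 and -1.35 (adjusted p = 0.00349 and 0.0293). Phgdh was lower in CD8α- cells (-1.5, adjusted p = 0.0106) and Psat1 in CD8α+ cells (-1.06, adjusted p = 0.037).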

How the data were processed

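RNA of 8 sorted cell samples was read on Affymetrix mouse arrays, 4 groups of 2. The authors deposited log2 expression values per probe set. Per the submitters' processing notes, GCRMA and affy were named for the wild type arrays and GCRMA for the knockout arrays. Tool versions are not given in the sources used, nor is whether all arrays were normalized at once. Values were used as deposited. Precision is limited by the small number of arrays.

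Genes were named from the platform annotation: of 45101 probe sets, 34945 had 1 gene, 932 several, 9160 none and 64 were controls. Symbols of 34754 probe sets were updated by gene ID, and Ero1l is printed as Ero1a. Probe sets with log2 of at least 5 on at least 2 arrays were kept, and 1 per gene, that with the highest mean, entered a linear model of the 4 groups (limma 3.58.1, R 4.3.3, plain eBayes). P-values were 2-sided, adjusted by Benjamini-Hochberg over 8763 genes and called under 0.05. Promoters came from RefSeq, GRCm38.p6. Figures used matplotlib 3.10.9 in Python 3.11.15.

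The members, lists and tests were chosen with earlier results of these data known. All 32 members may be named. Of each other list and comparison, at most the 2 largest rises and falls among called genes were named, and of the marker lists the defining genes. The list counts are descriptions, with no test of a list. Other settings were quantile normalization, median centring, no filter, a filter at log2 7, a linear offset of 16, the mean of probe sets, each probe set alone, trend and robust eBayes, the replicate number as a block and each array left out. Settings added after seeing the data were values below 5 set to 5, the block after exchanging the numbers of RAG2-/- CD8α+ cells, and the fit without the 2 arrays with neutrophil transcripts. Recovery of known changes in 200 genes was tested on simulated data.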

Additional observations from a re-analysis of the deposited data

How the results depend on the processing

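The number of members called between the subsets moved with the settings. In wild type cells it was 5, with 3 without the filter, 9 with trend and robust eBayes, 8 without the 2 arrays with neutrophil transcripts, and 1 to 7 when 1 array was left out. In RAG2-/- cells it was 4, with 1 without the filter and 1 to 6 when 1 array was left out. Between the genotypes, leaving out 1 array gave 5 to 11 against 11 in CD8α- cells and 2 to 8 against 8 in CD8α+ cells. The interaction called 0 members under every setting tried. Without the filter 32 members were tested. Where 1 array was left alone in its group, its spread was taken from the other groups.

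Averaging all probe sets of a gene reversed 3 differences. Atf4 became 0.81 (adjusted p = 0.0244) in CD8α- cells between the genotypes, and Dnajc3 -0.77 (adjusted p = 0.0388) and Herpud1 1.37 (adjusted p = 0.00259) in CD8α+ cells. Their probe sets differ in sign.

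Arrays with the same replicate number did not deviate together, since replicate differences correlated between groups at -0.146 to 0.112. With the replicate number as a block, 6 and 4 members were called between the subsets, 9 and 8 between the genotypes, and 0 in the interaction. With the numbers exchanged in RAG2-/- CD8α+ cells these were 4, 3, 11, 6 and 0.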
